A study of Mus musculus with 106 samples.

Results

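In mouse liver, 2676 stretches of chromatin that opened with the FXR agonist GW4064 in wild-type (WT) animals also opened in animals lacking Foxa2, and were absent from the lists of regions opened by either of the LXR agonists used beside it. They are called common GW4064 regions here. They were chosen by overlap among the authors' ATAC-seq lists: each is a region of the WT list for GW4064 over vehicle that shares 1 base or more with a region of the Foxa2-KO list for GW4064 over vehicle and no base with a region of the WT lists for GW3965 or T09 over vehicle. They made up 4.42% of the 60528 regions of the WT GW4064 list. The 27 lists used from the series hold 440564 regions and peaks in all.

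ATAC-seq, as usually run, cuts and tags DNA that is not tightly packed, and a region listed for ligand over vehicle is one with more reads with the ligand. The labels name the assay ATAC-seq, but their library protocol for these samples describes blunting of DNA ends, ligation of adapters and size selection, and not tagging by a transposase. The libraries came from liver nuclei of mice aged 8 to 12 weeks, harvested 4 h after the ligand or its vehicle (given by gavage according to the samples' labels, by injection according to the series' text), with 3 WT GW4064, 3 WT GW4064 vehicle, 3 Foxa2-KO GW4064 and 3 Foxa2-KO GW4064 vehicle samples. For GW3965 and for T09 (T0901317) there were 2 WT samples with ligand and 2 with vehicle each. The mutant is described for other samples of the series as a loxP-flanked Foxa2 deleted by an Alfp-driven Cre, which acts in liver cells. Each comparison was given as 1 list in which the samples are combined, so no difference below could be tested over animals. Intervals on shares are exact binomial (Clopper-Pearson) 95% intervals, and they cover counting error only. The lists hold no level for any gene, and neither GW4064 list held a region within 10 kb of Foxa2, so the deletion was not checked. RNA-seq and the ATAC-seq of the mutant with LXR agonists were not analysed here.

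FXR is the nuclear receptor that bile acids activate in liver; it binds DNA with its partner RXR, typically at inverted copies of AGGTCA, and it represses bile acid synthesis and raises bile salt export. GW4064 is a synthetic agonist of it, while GW3965 and T09 activate the oxysterol receptors LXR. Foxa2 is a forkhead factor of hepatocytes that can bind packed DNA and is known for making it open to other factors.

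Sequence was read only at promoters: 187 windows (250 bases before to 50 bases after a RefSeq start, GRCm38.p6) at 162 genes lay in a common region. The stretch before the start is printed for 4 of them, chosen after their values were seen. Insig2 stands in the locus with the most common regions, Gstm3 has a common region at its start among the first 25 of the WT list, Plpp2 has an FXR peak in its common region, and Rbm15b shows the CpG-dense kind of promoter. Bases that lie in an annotated gene body were left off, each sequence reads 5′ to 3′ on the strand of the gene, and capitals mark each CG dinucleotide.
Insig2, chr1:121332663-121332839, minus strand: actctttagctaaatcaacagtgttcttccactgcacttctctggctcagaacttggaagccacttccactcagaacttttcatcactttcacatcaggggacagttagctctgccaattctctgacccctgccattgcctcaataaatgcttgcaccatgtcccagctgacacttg
Gstm3, chr3:107969175-107969424, minus strand: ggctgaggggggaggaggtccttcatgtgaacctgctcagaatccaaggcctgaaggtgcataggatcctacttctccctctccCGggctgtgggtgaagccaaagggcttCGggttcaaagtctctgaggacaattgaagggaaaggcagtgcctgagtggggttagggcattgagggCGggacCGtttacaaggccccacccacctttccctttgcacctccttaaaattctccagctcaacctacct
Plpp2, chr10:79533788-79534037, minus strand: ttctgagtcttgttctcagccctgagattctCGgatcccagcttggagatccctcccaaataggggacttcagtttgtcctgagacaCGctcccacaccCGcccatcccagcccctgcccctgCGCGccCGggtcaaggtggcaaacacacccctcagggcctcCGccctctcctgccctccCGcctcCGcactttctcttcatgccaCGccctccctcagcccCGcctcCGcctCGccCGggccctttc
Rbm15b, chr9:106887076-106887325, minus strand: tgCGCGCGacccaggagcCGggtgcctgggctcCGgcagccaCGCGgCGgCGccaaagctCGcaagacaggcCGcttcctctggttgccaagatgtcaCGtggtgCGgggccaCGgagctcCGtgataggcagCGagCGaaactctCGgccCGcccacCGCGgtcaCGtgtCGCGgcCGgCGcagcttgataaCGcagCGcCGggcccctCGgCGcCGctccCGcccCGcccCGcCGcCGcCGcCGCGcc
The printed Insig2 bases hold 0 CG dinucleotides, those of Gstm3 hold 4, those of Plpp2 hold 14 and those of Rbm15b hold 40.

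The promoters in common regions were rich in G and C. Their median GC content was 65.7% and their median number of CG dinucleotides 23, against 61.3% and 18 over promoters in any region of the WT GW4064 list and 52.7% and 7 over all 32851 promoter windows. Windows with 15 or more CG made up 71.7% of those in common regions, 59.1% of those in any WT GW4064 region and 34.6% of all. The core motif AGGTCA, searched on both strands, was in 23 of the 187 windows (12.3%), in 13.5% of windows in any WT GW4064 region and in 16.3% of all. Its inverted repeat with a spacer of 1 base, AGGTCANTGACCT, which contains the core motif, was in 0 of the 187 and in 3 of all 32851. The forkhead letters TGTTTAC, counted together with the related letters TGTTTGC and the related letters TATTTAC, were in 10 of the 187 windows (5.35%), in 7.36% of windows in WT GW4064 regions and in 11.2% of all. One of these is in the printed Plpp2 sequence, as gcaaaca, 109 bases before the start. These matches are letters in a window and not sites of binding. A gene with several starts can count more than once. None of these values was read by region width, and 72 of the 146 common regions at a promoter window had 1500 bp or more. How far width accounts for the GC content, or GC content for the shares of the motifs, was not tested.

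Both GW4064 lists were large, and they overlapped in a small part of each. The WT list held 60528 regions over 20.8 Mb and the Foxa2-KO list 82561 regions over 19.4 Mb. Of the WT regions, 3224 (5.33%) overlapped a Foxa2-KO region, 3297 (5.45%) a GW3965 region of WT and 2907 (4.80%) a T09 region of WT. Of the 3224 common to both genotypes, 548 lay in a region of an LXR agonist as well, and the other 2676 are the common GW4064 regions. Seen from the mutant, they overlapped 2667 Foxa2-KO regions, or 3.23% of that list. These counts follow from the rule and were not tested.

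Common GW4064 regions were wide beside the rest of the WT list. Their median width was 291.5 bp (quartiles 150 and 634.5 bp), against 150 bp (73 and 339 bp) for the other WT regions and 920 bp for the 548 regions that an LXR agonist list also held. This was partly set by the choice, since a wider region shares 1 base with another list more readily. Common regions made up 2.26% of WT regions under 150 bp and 8.43% of those of 1500 bp or more. The size selection in the labels is for fragments of about 1 nucleosome. The median of 150 bp of the other WT regions is close to the insert the labels give. Whether the insert bears on the widths was not tested. The narrowest common region had 1 bp and the widest, over the transferrin gene Trf, 18743 bp. Together they covered 1.52 Mb, of which 1124 kb were inside Foxa2-KO regions. Of the 2676, 1918 (71.7%) were covered over 50% or more of their bases by Foxa2-KO regions, 747 (27.9%) over all of them, and the median was 79.8%.

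At the edge of the rule, 124 common regions shared under 10 bases with the mutant. Those with the fewest shared 1 base each, such as the regions in Fcna, Srrm1 and Foxk2 and near Csf1. The 5 WT regions just outside lay 0 to 1 bp from a Foxa2-KO region without sharing a base, and 4997 WT regions of no other list lay within 1 kb of one. A gap of 1 kb or less also separated 494 common regions from a region of an LXR agonist, and the median gap to such a region was 4.47 kb.

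The Foxa2-KO list gives a fold of GW4064 over vehicle and a q-value for each region, both the authors' own, whereas the WT list gives positions only. In the Foxa2-KO regions that meet a common region, the median fold was 2.03 (quartiles 1.59 and 2.81), against 3.31 (2.36 and 5.06) over all Foxa2-KO regions. A q of 0.01 or less belonged to 648 of the 2667 (24.3%) and to 12946 of all 82561 (15.7%). The fold was lower where the mutant region was wider: its median was 3.26 in 741 common regions whose mutant counterpart was under 200 bp, 2.15 in 911 from 200 to under 500 bp, 1.57 in 731 from 500 to under 1500 bp and 1.26 in 293 at 1500 bp or wider. The 10 largest folds, from 15.7 to 101.3, belonged to mutant regions of 4 to 35 bp, in or near Ccdc85a, Erbb4, Olfr1324, Vps13d, Arrdc3, Cbln2, Ccser1, Tceal5, Tcerg1l and Cdh2. The large folds thus belonged to narrow regions, and a fold below is best read beside the width.

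**Figure D1:**
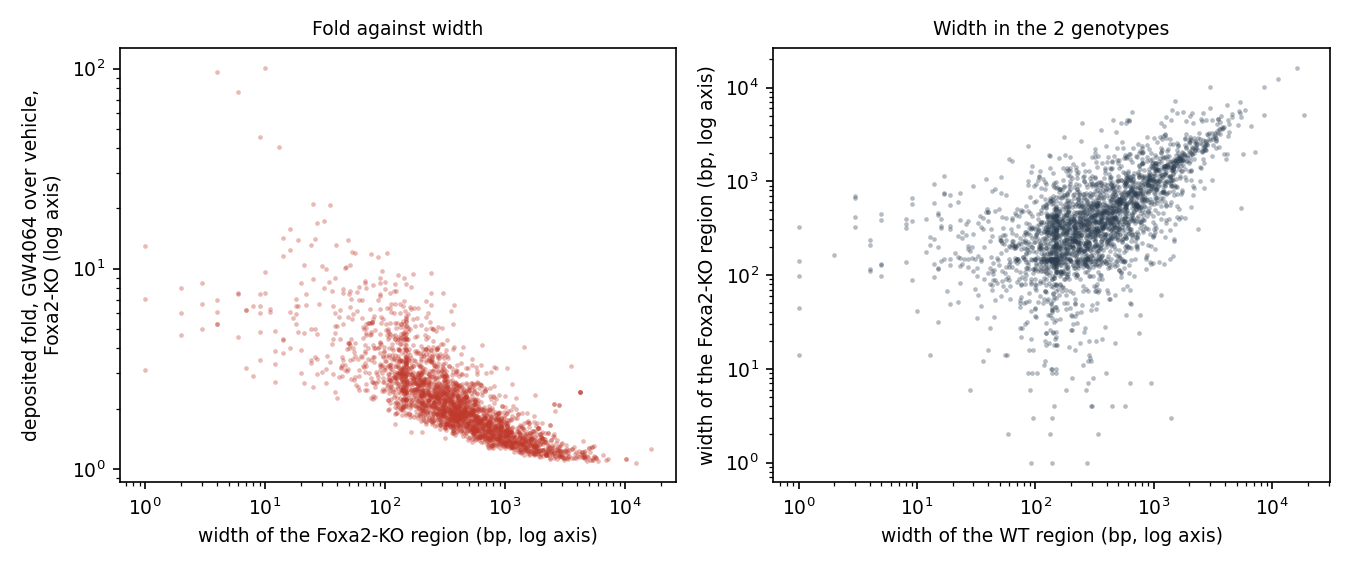
Left, the deposited fold of GW4064 over vehicle in Foxa2-KO liver against the width of the Foxa2-KO region in bp, for the Foxa2-KO region that meets each of the 2676 common GW4064 regions (log axes). Right, the width of that Foxa2-KO region against the width of the WT region in bp (log axes); the folds of 40 and more on the left all belong to regions of 4 to 13 bp, and the widest regions have folds near 1.

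Common regions were frequent at the head of both lists. They made up 13 of the first 50 entries of the WT list (26%), 76 of the first 500 (15.2%), 415 of the first 5000 (8.3%) and 3.62% of the last 5000. Of the first 50 Foxa2-KO entries 12 met a common region, and of the first 500, 69 did. The rule favours wide regions, and these shares were not read by width. How far width accounts for them was not tested. The Foxa2-KO entries are in order of q. The WT list holds no value that would show what its order means, so a WT entry number is only a place in the list.

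Distance to genes was not used by the rule, but the rule asks for overlap with the mutant list and favours wide regions. The shares in gene bodies and within 10 kb were not read by width, and the part of width in them was not tested. Of the 2676 common regions, 1512 (56.5%, interval 54.6 to 58.4) overlapped the body of a protein-coding gene, against 50.0% of all WT GW4064 regions. In or within 10 kb of such a gene were 1766 (66.0%, interval 64.2 to 67.8), against 59.4% of all WT GW4064 regions. A promoter window was overlapped by 146 (5.46%, interval 4.63 to 6.39), against 2.62% of all. By width, promoter windows were met by 34.4% of the 209 common regions of 1500 bp or more (interval 28.0 to 41.3), 8.09% from 500 to under 1500 bp, 1.38% from 150 to under 500 bp and 0.767% under 150 bp. In WT GW4064 regions that lay in none of the other 3 ATAC lists, the shares were 27.8%, 8.56%, 0.899% and 0.351%. The X chromosome gave 82 common regions, 2.75% of its WT regions, against 4.42% over all chromosomes. Shares of the autosomes ran from 3.12% on chromosome 10 to 6.38% on chromosome 18, and Y gave 1 of 81 (1.23%).

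Of the common regions, 1976 stood alone, with no other within 50 kb. The remaining 700 fell into 284 loci of 2 or more, and 11 loci held 5 or more, 81 regions in all. These loci were defined after the data had been seen. No common region may touch a region of GW3965 or T09, so the coverage of these loci by the lists of the LXR agonists, given below, was held low by the choice itself and is a description only.

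Insig2, whose protein holds the sterol sensor SCAP in the endoplasmic reticulum and so limits cholesterol and fatty acid synthesis, stood in the locus with the most. In chr1:121286994-121354264 (mm10), 16 common regions of 129 to 3114 bp were found, 7 of them in the gene body. Regions of the WT GW4064 list covered 37.5% of this 67.3 kb stretch and those of the Foxa2-KO list 46.1%, against 6.25% for GW3965 and 0.131% for T09. The widest common region, chr1:121330357-121333470, covered the promoter shown above, had a deposited fold of 1.18 in the mutant and met 3 ChIP lists, a Foxa2 peak at the promoter window among them. Downstream of the gene, 4 common regions between chr1:121289795 and chr1:121293900 met a single Foxa2-KO region of 4197 bp with a fold of 2.42 (q = 1.57e-34, entry 11). Inside the gene, chr1:121314952-121316681 (1730 bp) had a fold of 3.24 in the mutant (q = 1.71e-11). The locus held 0 FXR peaks of WT GW4064 liver and 5 Foxa2 peaks, and the FXR peak nearest to the common region at the promoter was 149553 bp away.

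The Cyp3a genes encode monooxygenases that oxidise steroids, bile acids and drugs. At Cyp3a25, 7 common regions lay in chr5:145973585-146015353. WT GW4064 regions covered 72.4% of these 41.8 kb, Foxa2-KO regions 59.0%, GW3965 regions 7.25% and T09 regions 0%. The first entry of the whole Foxa2-KO list lay here, 3549 bp wide with a fold of 3.26 (q = 1.85e-87), and contained the common region chr5:145973585-145973942. In the gene body, chr5:145996142-145997832 (1691 bp) was entry 26 of the WT list and entry 13 of the Foxa2-KO list, with a fold of 4.08 (q = 4.44e-30). No FXR peak of WT GW4064 liver lay within 10 kb of the gene, and the one nearest to that region was 263011 bp away. At the neighbouring Cyp3a59, 6 common regions of 51 to 721 bp had mutant folds of 2.63 to 9.53. There WT regions covered 13.9% of the 37.0 kb and Foxa2-KO regions 2.42%.

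At Cyp2c29, which encodes an arachidonic acid and drug oxidising enzyme, and at Gstm3, a glutathione transferase, the mutant covered less than WT. At Cyp2c29 (chr19:39270009-39336683) 9 common regions were found. WT GW4064 regions numbered 39 and covered 48.9% of the locus, while 21 Foxa2-KO regions covered 15.5%, 9 GW3965 regions 4.11% and T09 regions 0%. The common region chr19:39327896-39330551 (2656 bp, WT entry 23) had a mutant fold of 3.19, and chr19:39302509-39304162 (1654 bp, WT entry 24) had a fold of 1.60 and an FXR peak. At Gstm3 (chr3:107962359-107981116) 6 common regions were found, WT regions covered 62.7%, Foxa2-KO regions 24.4% and those of either LXR agonist 0%. The common region chr3:107962359-107965442 was entry 7 of the WT list and had mutant folds of up to 1.92. The one over the Gstm3 promoter shown above, chr3:107968626-107970094, was covered over 97.5% of its bases in the mutant with a fold of 1.24.

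**Figure D2:**
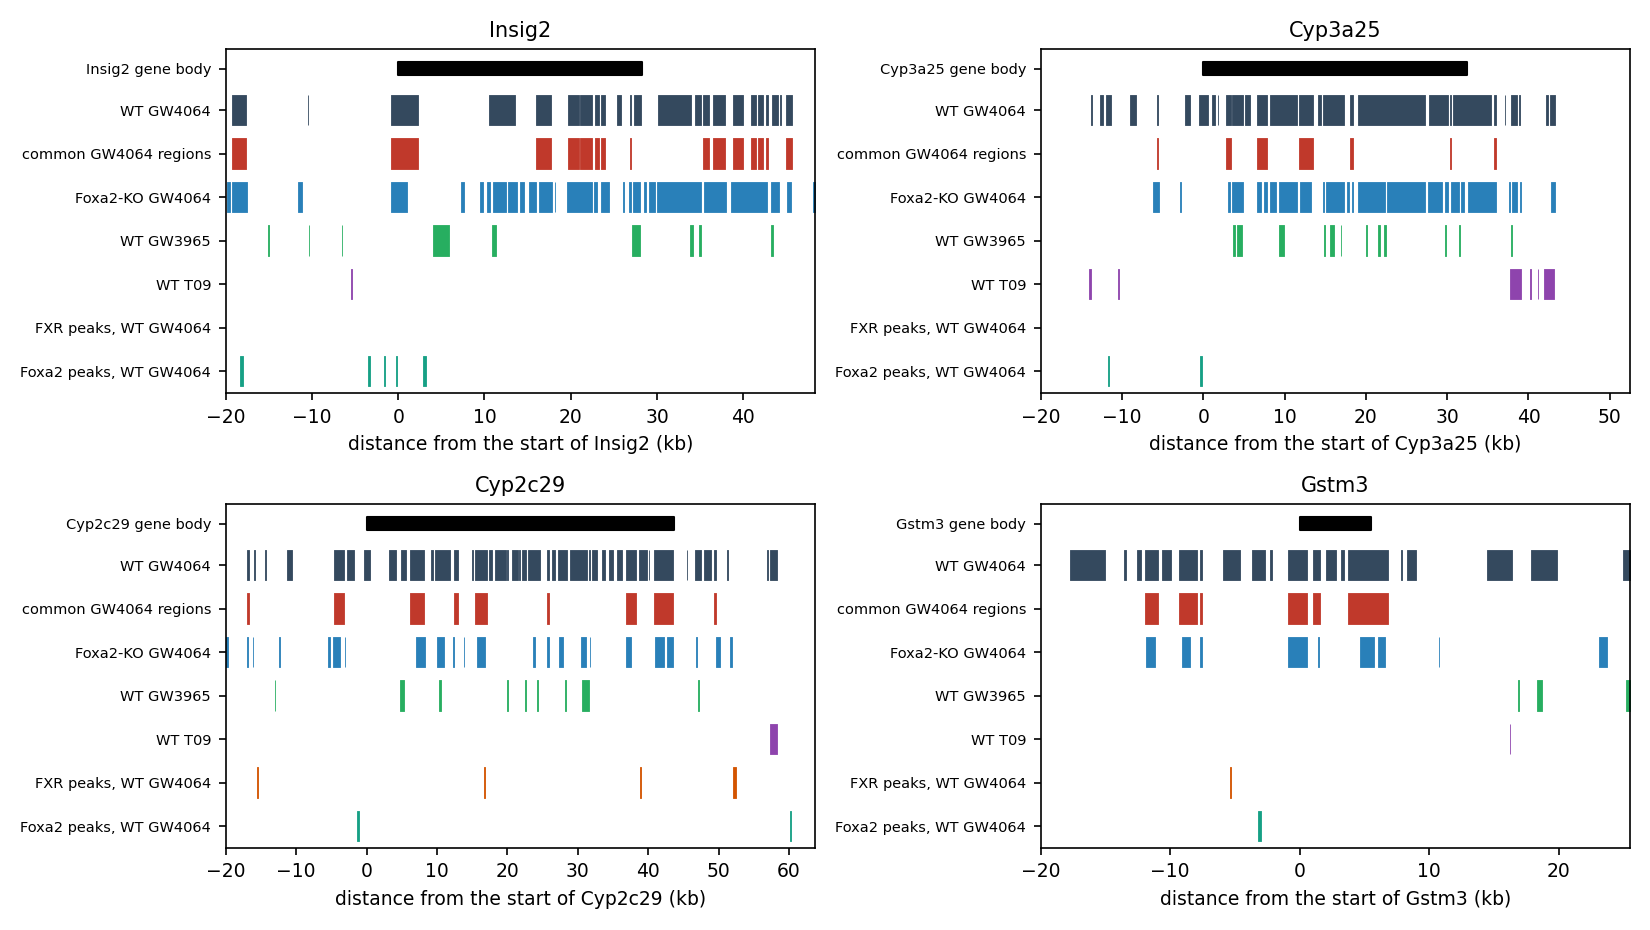
Maps of Insig2, Cyp3a25, Cyp2c29 and Gstm3 in kb from the start of each gene, in the direction of transcription, with the gene body in black, the regions of the 4 ATAC-seq lists, the common GW4064 regions and the FXR and Foxa2 peaks of WT GW4064 liver (very narrow regions are drawn at line width). Foxa2-KO regions cover much of Insig2 and Cyp3a25 and less of Cyp2c29 and Gstm3, GW3965 and T09 regions are few, and the Insig2 and Cyp3a25 maps show no FXR peak.

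The other loci with 5 or more held genes of varied function. At Zfpm1, which encodes a cofactor of GATA factors, 7 common regions lay in chr8:122298800-122331575, where Foxa2-KO regions covered 60.2% and WT regions 32.6%, the reverse of Cyp2c29. A stretch of 69.1 kb on chromosome 2 with Ptgds (prostaglandin D2 synthase), Abca2, Paxx, Clic3 and C8g held 9, and 6 lay nearest to Hes1. Near Ccnd1 (cyclin D1) there were 5, at Leap2 and Aff4 5, and in one part of the spindle checkpoint gene Mad1l1 5. Counted by gene body, Mad1l1 held 10 over its 313 kb, Insig2 and Zfpm1 7 each, Cyp2c29 6, and Cers6, Svil, Cyp3a25 and Cyp3a59 5 each. Spns2 and Synpo followed with 4 each. At Ambp, the precursor of alpha-1-microglobulin and bikunin, the 4 common regions were also the 4 WT GW4064 regions of a stretch of 12.0 kb. They covered 72.0% of it and Foxa2-KO regions 71.0%, with no FXR peak inside it.

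Very wide common regions had small folds. The widest, chr9:103212568-103231310 in Trf, the plasma iron carrier, was entry 45 of the WT list. It met 3 Foxa2-KO regions that shared 14781 of its 18743 bp, with folds of up to 1.30. With chr9:103205180-103212360 beside it, common regions covered 99.0% of the Trf body and Foxa2-KO regions 72.6%. Next in width were chr7:38182302-38198577 at 1600014C10Rik (16276 bp, fold 1.26), chr9:109090066-109101334 over Ccdc51 and Plxnb1 (11269 bp, fold 1.07) and chr7:13031289-13039781 over Chmp2a and Ube2m (8493 bp, fold 1.12). The remaining 6 of the 10 widest, in or nearest to Alpk2, Trf, Txnl1, Shfl, Gatad2a and Bcorl1, had 5501 to 8465 bp. Sharing the most bases with the mutant were the same regions at 1600014C10Rik, Trf, Ccdc51, Chmp2a, Alpk2 and Bcorl1, with others in Rbfox3 and Gas2l1 and far from Dio3.

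Gene lists for liver were set beside all 21887 protein-coding genes, of which 8.46% (1852) had a common region in the body or within 10 kb. Of 24 drug metabolism genes 7 had one: Cyp2c29, Cyp3a25, Cyp3a44, Cyp3a11, Cyp2b10, Gstm3 and Ugt2b5. That is 29.2%, the highest share of the lists given here, but 3 of the 7 are Cyp3a genes of 1 cluster, and the lists were drawn with earlier results on several of these genes known. Any WT GW4064 region lay in or within 10 kb of 21 of the 24, against 62.4% of all protein-coding genes. The median length of the 24 was 25.7 kb, against 17.2 kb for all, and longer genes meet more regions. Near Cyp2b10, a monooxygenase raised by the receptor CAR, the region chr7:25892627-25893622 was WT entry 130, with a mutant fold of 1.45. In Ugt2b5, a glucuronosyltransferase, there were 3, with folds of 1.45 to 2.51. Cyp3a11 and Cyp3a44 had 1 each, of 134 and 122 bp.

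**Figure D3:**
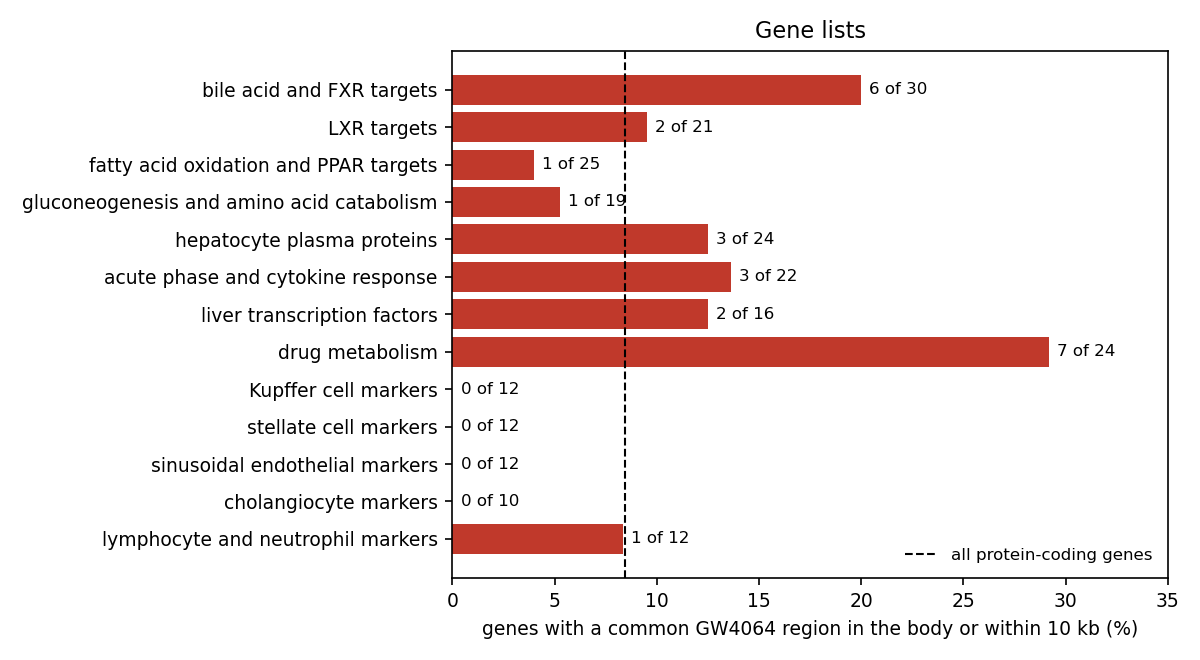
Percent of the genes of each list that had a common GW4064 region in the gene body or within 10 kb, with the number of genes beside each bar; the dashed line is the share over all protein-coding genes, 8.46%. Drug metabolism (7 of 24) and bile acid genes (6 of 30) lie furthest to the right of the line. LXR targets (2 of 21) and hepatocyte plasma proteins (3 of 24) lie to the right of it by less and on few genes. The same holds for acute phase genes (3 of 22) and liver transcription factors (2 of 16). Fatty acid oxidation (1 of 25) and gluconeogenesis and amino acid breakdown (1 of 19) lie to the left of it. Of the 5 lists of other cell types, each of 10 to 12 genes, 4 have 0.

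Among 30 bile acid genes and FXR targets 6 (20%) had a common region, although 26 had a WT GW4064 region and 22 a Foxa2-KO region that near. The median length of the 30 was 26.9 kb, against 17.2 kb for all protein-coding genes. In Abcb11, the bile salt export pump and a textbook FXR target, there was 1: chr2:69292460-69293077 (618 bp), 45.1% covered in the mutant, with a fold of 2.27 (q = 0.0126). WT regions numbered 64 in or within 10 kb of Abcb11 and covered 21.8% of it, against 12 and 2.12% in the mutant and 56 and 14.5% with GW3965. In Abcc2, an export pump for conjugates, WT regions covered 25.6% and Foxa2-KO regions 0.646%, against 13.5% with GW3965 and 28.4% with T09. In Abcg8, a sterol exporter, it was 15.2% and 0.479%, against 15.2% with GW3965 and 15.4% with T09. The common region of Abcc2 had 689 bp with a mutant fold of 1.68, and that of Abcg8 864 bp with 2.85, of which 115 bp were shared. Slco1a1, an uptake carrier of organic anions, had 1 of 542 bp, and Cyp2b10 was named above.

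Near Osgin1, an FXR target of the oxidative stress response, 3 common regions lay in the last part of its neighbour Mlycd (malonyl-CoA decarboxylase). The first, chr8:119418734-119420016, was WT entry 150 with a mutant fold of 2.03 (q = 3.29e-10), and chr8:119420742-119421336 met a Foxa2-KO region of 4470 bp with a fold of 1.38 (q = 3.29e-11). An FXR peak at entry 135 of its list lay 8914 bp from the latter. The body of Osgin1 itself held no common region: WT regions covered 96.9% of it and Foxa2-KO regions 58.4%, but GW3965 regions covered 88.1%, which the rule removes. Nr0b2 (SHP), the repressor that FXR induces, had 4 WT and 1 Foxa2-KO region in or within 10 kb, and 0 of the 4 overlapped a Foxa2-KO region. GW3965 gave 3 regions that near and T09 gave 0. Cyp7a1, the rate-limiting enzyme of bile acid synthesis, had 1 WT and 0 Foxa2-KO regions, with 7 for GW3965 and 1 for T09.

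The lists of other liver functions had shares from 4% to 13.6%, against 8.46% of all genes. LXR targets had 2 of 21, Srebf1 (SREBP-1), with 2 regions 6430 and 8695 bp from the gene, and Acaca (acetyl-CoA carboxylase), with 83 bp. Fatty acid oxidation had 1 of 25, Acadvl, 2034 bp away, and gluconeogenesis and amino acid breakdown 1 of 19, Hal (histidine ammonia-lyase). Hepatocyte plasma proteins had 3 of 24, Trf and, through 1 region at chr9:46238194-46239949, Apoa1 and Apoc3. Acute phase and cytokine genes had 3 of 22, Il1r1 and, through the 412 bp region chr4:63350969-63351380, Orm1 and Orm3. Liver transcription factors had 2 of 16, Nr5a2 and Prox1.

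Marker lists of other liver cells held few or none, but each had only 10 to 12 genes. Of all protein-coding genes 8.46% had a common region that near, so a 0 in a list this short does not set it apart. Kupffer cell, stellate cell and sinusoidal endothelial markers had 0 of 12 each, cholangiocyte markers 0 of 10, and lymphocyte and neutrophil markers 1 of 12, through a region 6194 bp from Cd79a. The mutant list did reach these genes: 6 of the 12 Kupffer cell markers, 10 of the 12 stellate cell markers and 8 of the 10 cholangiocyte markers had a Foxa2-KO GW4064 region in or within 10 kb, while 1, 4 and 3 had a WT GW4064 region. For sinusoidal endothelial markers it was 9 with a Foxa2-KO and 11 with a WT region of 12, and for lymphocyte and neutrophil markers 4 each. Of all protein-coding genes 68.3% had a Foxa2-KO region that near and 62.4% a WT region. By the rule, a gene with no WT region that near could not have a common region. Lists of regions cannot tell more cells of a type from more open chromatin per cell.

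ChIP-seq of FXR, Foxa2, LXR and PPAR in the same series was not used by the rule and was set beside the regions. The lists rest on 2 samples per FXR and PPAR group, 1 per Foxa2 group and 1 (WT) or 3 (KO) per LXR group, and the mice of the LXR and PPAR samples were 3 months old. A peak of any of the 23 ChIP lists met 238 common regions (8.89%, interval 7.84 to 10.04), against 6.1% of all WT GW4064 regions, and 2438 (91.1%) met none. FXR peaks of WT liver with GW4064 met 28 (1.05%, interval 0.696 to 1.51), against 0.56% of all WT GW4064 regions. With vehicle it was 12 (0.448%), against 0.263%. In Foxa2-KO liver with GW4064 it was 10 (0.374%, interval 0.179 to 0.686), against 0.0892%. Within 10 kb of an FXR peak of WT GW4064 liver lay 474 common regions (17.7%, interval 16.3 to 19.2), against 16.9%, and 643 (24.0%) lay over 100 kb from one, against 23.3% of all.

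Foxa2 peaks of WT liver with GW4064 met 62 common regions (2.32%, interval 1.78 to 2.96), against 2.05% of all WT GW4064 regions. With the vehicle of that experiment it was 34 (1.27%), against 0.93%, and with any of the 5 Foxa2 lists 121 (4.52%, interval 3.77 to 5.38), against 3.92%. Within 10 kb of a Foxa2 peak of WT GW4064 liver lay 645 (24.1%, interval 22.5 to 25.8), against 21.5%. LXR lists met 87 (3.25%, interval 2.61 to 3.99), against 1.55%, and 54 of these were of the WT list labelled GW. PPAR lists met 24 (0.897%, interval 0.575 to 1.33), against 0.416%.

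Wider regions meet more peaks, and common regions are wider, so the shares were also read by width. They were set beside the 52109 WT GW4064 regions that lay in none of the other 3 ATAC lists, so that regions of the LXR agonists are left out on both sides. Over all widths, FXR peaks of WT GW4064 liver met 0.376% of these and Foxa2 peaks 1.31%. Among regions of 1500 bp or more, FXR peaks met 6.70% of the 209 common regions (14, interval 3.71 to 10.98) and 4.47% of the others. From 500 to under 1500 bp it was 1.37% of 655 and 1.27%. Foxa2 peaks were in a smaller share of common regions than of the others from 500 bp on: 14.8% (31, interval 10.3 to 20.4) against 21.4% at 1500 bp or more, and 3.66% (24, interval 2.36 to 5.40) against 6.34% from 500 to under 1500 bp. With regions of the LXR agonists kept among the others, these were 23.3% and 6.91%. Under 500 bp the shares of FXR and Foxa2 were all below 1%. LXR peaks met 12.0% (interval 7.89 to 17.1) against 8.01% in the widest class and 5.50% (interval 3.88 to 7.53) against 3.82% in the next. Regions of 1 locus are not independent of each other, so these intervals are too narrow. Differences close to their edge, as for Foxa2 in the widest class and for LXR, are not established. The Foxa2 difference from 500 to under 1500 bp is not established either. Its Foxa2 list rests on 1 sample, and it was not tested over animals.

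**Figure D4:**
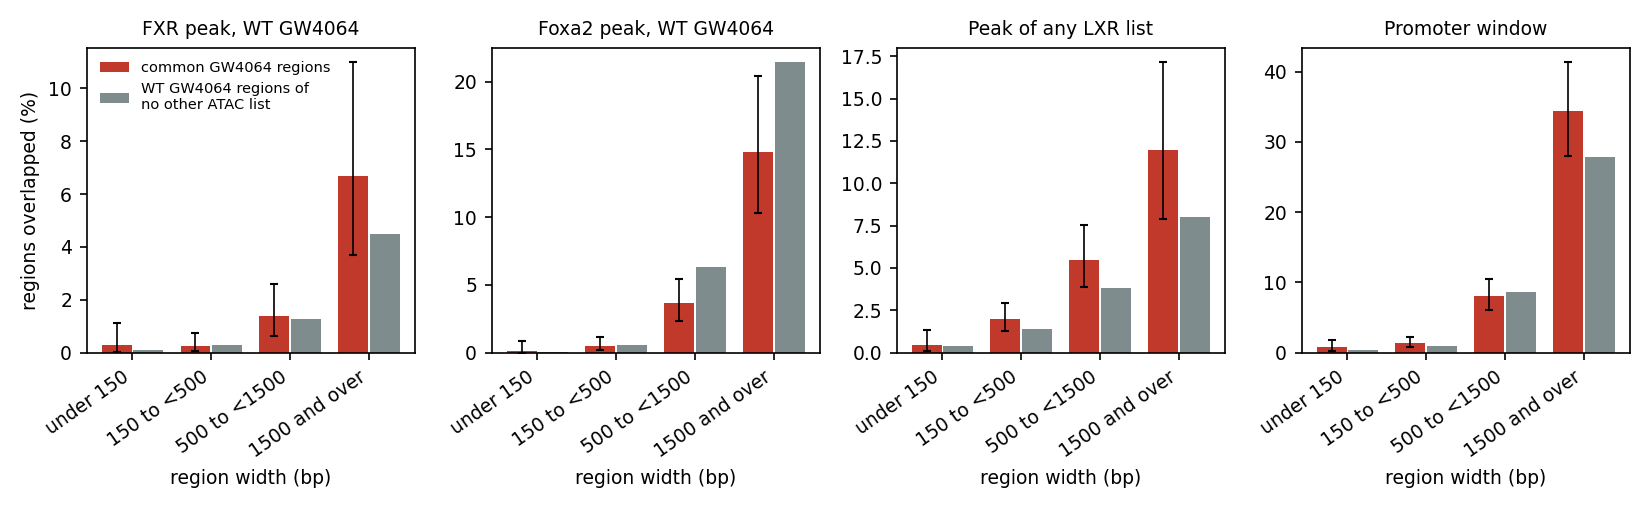
Percent of regions that met an FXR peak, a Foxa2 peak, a peak of any LXR list or a promoter window, in 4 classes of region width in bp, for the common GW4064 regions (red) and for WT GW4064 regions of none of the other 3 ATAC lists (grey); bars on the red columns are exact binomial 95% intervals. The Foxa2 columns are lower for common regions from 500 bp on, 3.66% against 6.34% and 14.8% against 21.4%, while the FXR intervals include the grey columns from 500 bp on.

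Per Mb of region, FXR peaks of WT GW4064 liver numbered 19.7 in common regions (30 peaks) and 14.6 in WT GW4064 regions of none of the other 3 ATAC lists. Those of Foxa2-KO GW4064 liver numbered 7.22 (only 11 peaks) and 2.67. Foxa2 peaks of WT numbered 46.6 and 52.2 with GW4064, 63.0 and 73.1 with GW3965, 51.2 and 64.3 with T09 and 11.2 and 15.2 with vehicle. For the vehicle of the GW4064 experiment the order was the other way, 26.9 and 23.3. LXR peaks of WT labelled GW numbered 38.1 and 24.4. The 548 regions of both genotypes that an LXR agonist list also held had more Foxa2 peaks per Mb than the common regions in all 5 Foxa2 lists: 71.7 with GW4064, 99.4 with GW3965, 94.3 with T09, 21.4 with vehicle and 32.7 with the vehicle of the GW4064 experiment. The 548 were also wider, with a median of 920 bp against 291.5 bp. Width was not held equal in these counts per Mb, and its part in them was not tested. With these 548 included, all 3224 WT regions that overlapped the mutant had 55.2 Foxa2 peaks per Mb with GW4064. The 52.2 above leaves out regions of the LXR agonists and is not a like comparison for it. With those regions kept, all WT GW4064 regions other than the common ones, the 548 among them, had 65.1.

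**Figure D5:**
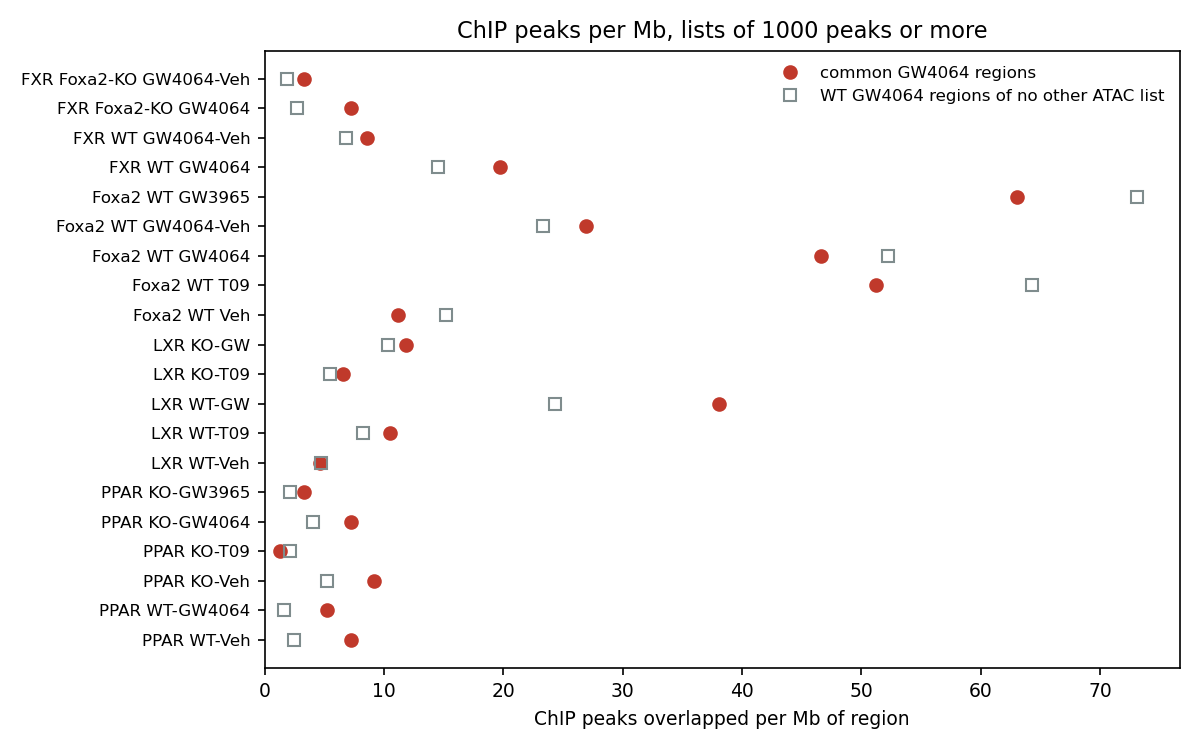
ChIP-seq peaks overlapped per Mb of region, for each ChIP list of 1000 peaks or more, in common GW4064 regions (red circles) and WT GW4064 regions of none of the other 3 ATAC lists (open grey squares). The circles lie left of the squares in 4 of the 5 Foxa2 lists, for example 46.6 against 52.2 with GW4064, and right of them in the 4 FXR lists. The FXR circles rest on few peaks: 30 (GW4064) and 13 (vehicle) for WT, and 11 (GW4064) and 5 (vehicle) for Foxa2-KO. Width was not held equal.

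The 28 common regions with an FXR peak were led by 2 at 1600014C10Rik. The first, chr7:38182302-38198577, met 17 of the 23 ChIP lists and was entry 3 of the Foxa2-KO list (q = 6.62e-63), and the next, chr7:38199542-38201375, met 14. Both overlapped one of 102 stretches where peaks of all 4 antibodies lie together, and no other common region did. Without those 2, FXR of Foxa2-KO liver with GW4064 met 8 common regions in place of 10 and FXR of WT with GW4064 26. Apart from them the earliest FXR entries belonged to a region far from Dio3, one far from Rbbp8 and chr7:144926653-144930553, which reaches into Ccnd1 and LTO1. The Ccnd1 region had 3901 bp, 97.2% covered in the mutant with a fold of 1.19, FXR entry 182, and met 7 ChIP lists, a Foxa2 list among them. The others of the first 15 by FXR entry lay in Zfp407, at Plpp2 (a lipid phosphate phosphatase), in Cpsf4l, in Myo1c, near Mrgpra3, in Hbegf, Tubb6 and Cryl1, and near Gm6124 and Slc45a1. The Plpp2 region, chr10:79532555-79534402, was wholly covered in the mutant with a fold of 1.16 over a region of 2884 bp, and the Myo1c region, chr11:75660857-75662680, wholly with 1.14 over 2819 bp. Near Slc45a1, chr4:150748180-150749720 had a fold of 1.43 with q = 5.78e-09.

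A total of 97 common regions met 2 or more ChIP lists and 18 met 5 or more. After the pair at 1600014C10Rik and the one at Ccnd1, the most lists were met at Ccdc51 and Plxnb1 (7), at Chd1l, at Tfap4, near Mrgpra3 and near Snx10 (6 each). The others of the 18 met 5 each, those at Cryl1 and Synpo among them. At promoters, 177 of the 187 windows in common regions were met by a Foxa2-KO region directly. An FXR peak of WT GW4064 liver met 3 of the windows, at 1600014C10Rik and the neighbouring D530033B14Rik. A Foxa2 peak met 6 at 5 genes, which were these 2, Insig2, Drd1 and 9130024F11Rik.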

How the data were processed

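The values are positions of regions and peaks that the authors deposited in 27 lists of ATAC-seq and ChIP-seq in mouse liver, 1 list for all samples of a group or comparison, with 0 columns of single samples. BWA was the aligner and mm10 the build, per the submitters' processing notes; their versions are not given in the sources used here. Peaks were called with PeakSeq, per the labels and the series' design text. The fold (ratio), q-value and -log10 of p in 3 of the ATAC lists are the authors' own, as deposited, and only fold and q were used. Starts are printed 1-based, and mm10 positions were joined to RefSeq genes and promoters of GRCm38.p6, the same build. Blank entries of the mutant FXR lists (28147 and 7254) were left out.

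Overlap means 1 base or more. Genes are the 21887 protein-coding genes, with 10 kb on each side where stated. The overlap steps were tested on simulated intervals. The members, gene lists and named regions were chosen with earlier results of these data known. Named regions were the 10 with the largest mutant fold, the widest, those sharing the most bases and those in the most ChIP lists, the first 15 with an FXR peak, the 10 genes with the most members and list genes near a member. Loci (regions within 50 kb of each other), first entries, width classes, distances to peaks, peaks per Mb and the WT regions of none of the other ATAC lists were added after seeing the data. The result of 1 gene list and 1 region at the edge of the rule are not reported here. Depth is unknown, since the lists hold no read counts. Replicates may be technical. No test over samples was made. The alternatives were greater overlap, lower q, width, distance to LXR agonist regions and the ChIP peaks counted. Overlaps were computed in python 3.11.15 with numpy 2.4.6 and tabulated in pandas 2.3.3. Intervals came from scipy 1.17.1, and plots were drawn with matplotlib 3.10.9.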

Additional observations from a re-analysis of the deposited data

How the results depend on the processing

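The number of common regions, 2676, became 660 with only Foxa2-KO regions of q 0.01 or less and 1704 with WT regions of 200 bp or wider. It was 1918 when the mutant had to cover 50% or more of the region, 2182 without regions that have an LXR agonist region within 1 kb, and 3224 with LXR agonist regions kept. The share with an FXR peak, 1.05%, became 1.97% under the q limit and 1.53% from 200 bp on. The share with a Foxa2 peak, 2.32%, became 3.03% under the q limit, 3.38% with LXR agonist regions kept and 3.52% from 200 bp on. The share in or within 10 kb of a gene, 66.0%, became 68.2% under the coverage rule, 72.9% under the q limit, 68.5% with LXR agonist regions kept, 62.8% within 5 kb and 77.1% within 50 kb. The other alternatives moved these shares by less than the counting interval. When the regions set beside the common ones kept those of the LXR agonist lists, an alternative chosen after seeing the data, the difference in Foxa2 peaks per Mb (common minus other) for the vehicle of the GW4064 experiment turned from 3.60 to -1.57, and that with GW4064 went from -5.60 to -18.5. No paired analysis was possible because each comparison was given as 1 list with its samples combined, and for the same reason no sample could be left out.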
